A study of Homo sapiens with 28 samples.

Results

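The core and variant histone genes were followed across 28 RNA-seq libraries of LNCaP cells, a line grown from a lymph node metastasis of a human prostate cancer. Members were all genes whose symbol began with HIST1H to HIST4H, H1F, H2AF or H3F, which took in 91 of the 26475 symbols listed. They comprised 70 coding genes of the HIST clusters (55 on chromosome 6, 14 on chromosome 1 and 1 on chromosome 12), 16 H1F, H2AF and H3F genes, 4 pseudogenes (HIST2H2BA, HIST2H2BC, H3F3AP4 and HIST1H2APS1) and 1 antisense RNA, H1FX-AS1. By family, 11 belonged to H1, 27 to H2A, 20 to H2B, 18 to H3 and 15 to H4.

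The study asked how loss of HOXB13, a prostate transcription factor, changes gene expression when p300 and CBP, a pair of histone acetyltransferases, are also removed or inhibited. A knockdown series held 8 groups of 2 libraries: shHOXB13, shHOXB13+shp300, shHOXB13+shCBP and shHOXB13+shp300/CBP, and the 4 groups with the control hairpin vector, shCtrl+shp300, shCtrl+shCBP, shCtrl+shp300/CBP and shCtrl. A CCS1477 series held 4 groups of 3 libraries: shHOXB13 or shCtrl cells kept for 48 hours with 250 nM CCS1477, an inhibitor of the p300 and CBP bromodomains, or with DMSO, its solvent. All 12 groups came from this 1 cell line, which the labels give as wild type, and HOXB13 was lowered by the same single hairpin throughout, so effects of that hairpin and of HOXB13 loss cannot be told apart. Values were FPKM, the fragments per kilobase of gene model, scaled to the mapped reads of the library, which are levels per length.

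Histones package DNA: pairs of H2A, H2B, H3 and H4 form the nucleosome core, and H1 binds the linker DNA between cores. Most HIST genes are switched on with DNA replication, lack introns and end in a stem-loop in place of a poly(A) tail, whereas H1F, H2AF and H3F genes mostly code for replacement histones that are made through the cell cycle as polyadenylated, usually spliced mRNAs. Some HIST genes also give polyadenylated transcripts that read past the stem-loop, above all in cells that have stopped dividing. The libraries were made from poly(A) RNA, so replication histones were seen here only as their polyadenylated forms, or as what remained of the others after selection.

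Histone mRNAs without a poly(A) tail end in the stem-loop, so its forms are shown first. A 16-base stem-loop was found past the stop codon of all 70 HIST genes and of 1 other gene, H2AFX, which is known to make both forms of mRNA; it lay 25 to 70 bases past the stop codon (median 38). The lines give the forms carried by the most genes and those of members described below, in the sense of the gene, with the paired arms in capitals.
40 genes, among them HIST1H1C, HIST1H2AC, HIST2H2BE and HIST3H2A: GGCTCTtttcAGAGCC
10 genes, 9 of HIST1H4A to HIST1H4J and HIST4H4, HIST1H4H among them: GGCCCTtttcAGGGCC
10 genes, among them HIST1H2BC, HIST1H2BD, HIST1H2BJ and HIST1H2BK: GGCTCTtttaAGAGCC
HIST1H3E: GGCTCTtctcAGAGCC
HIST2H2AC: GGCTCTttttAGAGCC
HIST1H2AK: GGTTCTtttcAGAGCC
H2AFX: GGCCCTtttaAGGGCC
GENCODE listed, for 12 HIST genes, a transcript that held the stem-loop and ran more than 100 bases past it. Among them were 4551 bases in HIST3H2BB, 1862 in HIST1H3E, 1729 in HIST2H2BE, 1655 in HIST1H4H, 1128 in HIST1H2AC and 1110 in HIST3H2A. The last 4 of these were among the 8 HIST genes with the highest mean FPKM. Of the 12 genes, 9 reached a group mean of 1 FPKM, and of the other 58 genes 32 did. Transcripts that leave out the stem-loop were not counted, so the 58 are not all genes that end there. Among the 58, HIST1H2BK, HIST1H2BD, HIST1H2BC and HIST2H2BF span 8566, 13229, 10757 and 29682 bases in RefSeq, most of them past the stem-loop.

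Promoters were read from RefSeq (GRCh38.p14) for 79 of the 86 coding members, and 4 motifs were searched in the 250 bases before each start. CCAAT, on either strand, was present in 84.6% of 65 HIST promoters, 78.6% of 14 H1F, H2AF and H3F promoters and 32.01% of all 35116 RefSeq promoters of that length. TATAAA, on the strand of the gene, was present in 58.5% of HIST promoters, 28.6% of the others and 6.80% of all. The octamer ATTTGCAT, on either strand, was present in 14 of 18 H2B promoters, 40.0% of HIST promoters, 7.14% of the H1F, H2AF and H3F promoters and 1.63% of all. CAATAAA, letters of the motif that HOXB13 is known to bind, was present on either strand in 3.08% of HIST promoters, 0% of the others and 3.665% of all. The first and last of these motifs share letters and can overlap. The 150 bases before the start are given for members that moved most or lay highest, 5′ to 3′ in the sense of the gene, with the first 3 of these motifs in capitals.
HIST1H2AC (chr6:26124022-26124171, + strand; the region between it and HIST1H2BC, which is read the other way): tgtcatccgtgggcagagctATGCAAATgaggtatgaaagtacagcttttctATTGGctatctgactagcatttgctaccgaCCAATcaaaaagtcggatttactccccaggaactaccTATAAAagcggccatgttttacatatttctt
HIST2H2BE (chr1:149886683-149886832, − strand): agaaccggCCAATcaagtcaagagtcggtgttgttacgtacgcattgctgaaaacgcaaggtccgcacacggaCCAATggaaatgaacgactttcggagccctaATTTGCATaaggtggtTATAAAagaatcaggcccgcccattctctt
HIST1H4H (chr6:26285535-26285684, − strand): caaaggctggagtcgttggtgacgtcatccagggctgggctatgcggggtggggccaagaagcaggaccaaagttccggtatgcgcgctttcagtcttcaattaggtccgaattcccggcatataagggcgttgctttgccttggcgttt
HIST1H1C (chr6:26056471-26056620, − strand): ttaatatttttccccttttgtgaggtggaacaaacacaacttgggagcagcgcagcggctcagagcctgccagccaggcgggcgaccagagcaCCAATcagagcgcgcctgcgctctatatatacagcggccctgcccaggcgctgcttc
H2AFX (chr11:119095466-119095615, − strand): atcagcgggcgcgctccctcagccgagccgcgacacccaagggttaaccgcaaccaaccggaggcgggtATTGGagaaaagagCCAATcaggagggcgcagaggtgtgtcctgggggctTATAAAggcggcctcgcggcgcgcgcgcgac
HIST1H4H, which was called in more comparisons than any other member, held none of the 4 motifs in its 250 bases.

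Mapped reads numbered 7458934 to 16338528 per library, and 52.7% to 74.3% of them fell in genes in the knockdown series, against 78.4% to 84.0% in the CCS1477 series. HOXB13 was at 5.25 to 12.1 FPKM in the 8 shHOXB13 libraries of the knockdown series, against 43.2 to 87.6 FPKM in the 8 shCtrl libraries, and at 28.4 to 32.2 FPKM in the 6 shHOXB13 libraries of the CCS1477 series, against 110 to 147 FPKM in the 6 shCtrl libraries. EP300, the gene of p300, passed the test as lower in shHOXB13+shp300 (adjusted p = 0.011), shCtrl+shp300 (0.0018) and shCtrl+shp300/CBP (0.0023) but not in shHOXB13+shp300/CBP (0.073). CREBBP, the gene of CBP, was called lower in shCtrl+shCBP (0.0041) and not in shHOXB13+shCBP (0.064) or shHOXB13+shp300/CBP (0.23), nor in shCtrl+shp300/CBP (0.044, log2 difference −0.50). These genes also moved without their hairpins (limma). EP300 was called lower in shHOXB13 than in shCtrl libraries (−0.92, adjusted p = 0.00067) and with DMSO (−0.86, 4.4e-05), and CREBBP with DMSO (−0.97, 6.3e-06). CCS1477 in shHOXB13 cells raised EP300 (0.74, 0.00035) and CREBBP (1.16, 5.8e-06). All 9 luminal prostate markers were present in both series, and KRT5, KRT14 and TP63, the basal markers, summed to 0 to 4.69 FPKM. The luminal sum was 4220 to 4345 FPKM in shHOXB13 libraries, against 2310 to 2469 FPKM in shCtrl libraries, and 6048 to 7009 FPKM in shHOXB13 DMSO libraries, against 2984 to 3123 FPKM in shCtrl DMSO libraries. The markers, HOXB13 itself among them, did not move alike. Of the 9, 3 were called higher and 4 lower in shHOXB13 libraries (median log2 difference −0.46). With DMSO 4 were called higher and 5 lower (median −0.69). Markers of fibroblasts summed to at most 18.1 FPKM, of immune cells to 40.2, of endothelium to 2.89 and of the germline to 7.67. Libraries shCtrl DMSO 1 and shCtrl CCS1477 1 stood apart from the other 2 of their groups in the histone genes, and results that rest on them are given with and without them. Library shHOXB13+shp300/CBP 1 likewise stood apart from shHOXB13+shp300/CBP 2, with H3F3B at 98.9 against 33.7 FPKM and H1F0 at 72.9 against 33.7 FPKM.

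Levels differed widely among members. In all 28 libraries 19 members were at 0: HIST1H2AA, HIST1H2APS1, HIST1H2BA, HIST1H2BH, HIST1H2BI, HIST1H3G, HIST1H4F, HIST1H4G, HIST1H4L, HIST2H2AA3, HIST2H2AA4, HIST2H3A, HIST2H3C, HIST2H4A, HIST2H4B, H1FOO, H2AFB1, H2AFB2 and H2AFB3. Several of these are near-identical pairs (HIST2H2AA3 and HIST2H2AA4, HIST2H3A and HIST2H3C, HIST2H4A and HIST2H4B), whose reads cannot be assigned to 1 copy, and H3F3A, with 2 reads in all, shares long stretches with its processed copies. A value of 0 in those genes is no measure of their expression. The other 72 members were above 0, 7 of them with under 10 reads over the 28 libraries. A group mean of 1 FPKM was reached by 53 members, 41 HIST and 9 H1F, H2AF or H3F genes among them, and 10 FPKM by 23. Mean FPKM over the libraries was highest in H2AFZ (178), which codes for H2A.Z, a variant found at promoters, then H2AFY (127, macroH2A1), H1FX (121, linker histone H1.10), HIST1H1C (119, linker histone H1.2) and HIST1H2BK (103, an H2B). H3F3B (78.1, histone H3.3), HIST1H2AC (76.1), H2AFX (64.1, H2A.X, which is phosphorylated at DNA breaks), H1F0 (62.4, linker histone H1.0 of differentiated cells), HIST3H2A (55.4), HIST1H4H (45.8) and HIST2H2BE (42.8) came next. HIST1H3E, HIST1H4E and HIST1H2AM, further HIST genes, averaged 11.2, 7.60 and 7.88 FPKM.

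HIST genes held a larger share of summed histone FPKM in every shHOXB13 library than in any shCtrl library of the same series. H3F3A and the near-identical HIST2 pairs add next to nothing to the sums, and mRNAs without a poly(A) tail were selected against. The shares are therefore not those of all histone mRNA in the cells. Of the summed FPKM of HIST, H1F, H2AF and H3F genes, HIST genes took 53.1% to 60.2% in the 8 shHOXB13 libraries, against 37.4% to 48.2% in the 8 shCtrl libraries of the knockdown series, and 59.0% to 62.2% in 6 shHOXB13 libraries, against 23.0% to 33.0% in 6 shCtrl libraries of the CCS1477 series. The summed FPKM of HIST genes was 699 and 650 in shHOXB13 libraries and 483 and 552 in shCtrl libraries, while that of H1F, H2AF and H3F genes was 483 and 449 in shHOXB13 libraries and 807 and 793 in shCtrl libraries. In the CCS1477 series the HIST sum was 798, 752 and 720 in shHOXB13 DMSO libraries and 608, 365 and 355 in shCtrl DMSO libraries, and the sum of the other genes was 506, 522 and 475 in shHOXB13 DMSO libraries and 1477, 1206 and 1186 in shCtrl DMSO libraries. The groups overlapped in neither sum in either series. In bulk libraries such as these, fewer cells of a kind and less RNA per cell cannot be told apart. No p-value is given for these sums, since the members were chosen with earlier results known.

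**Figure D1:**
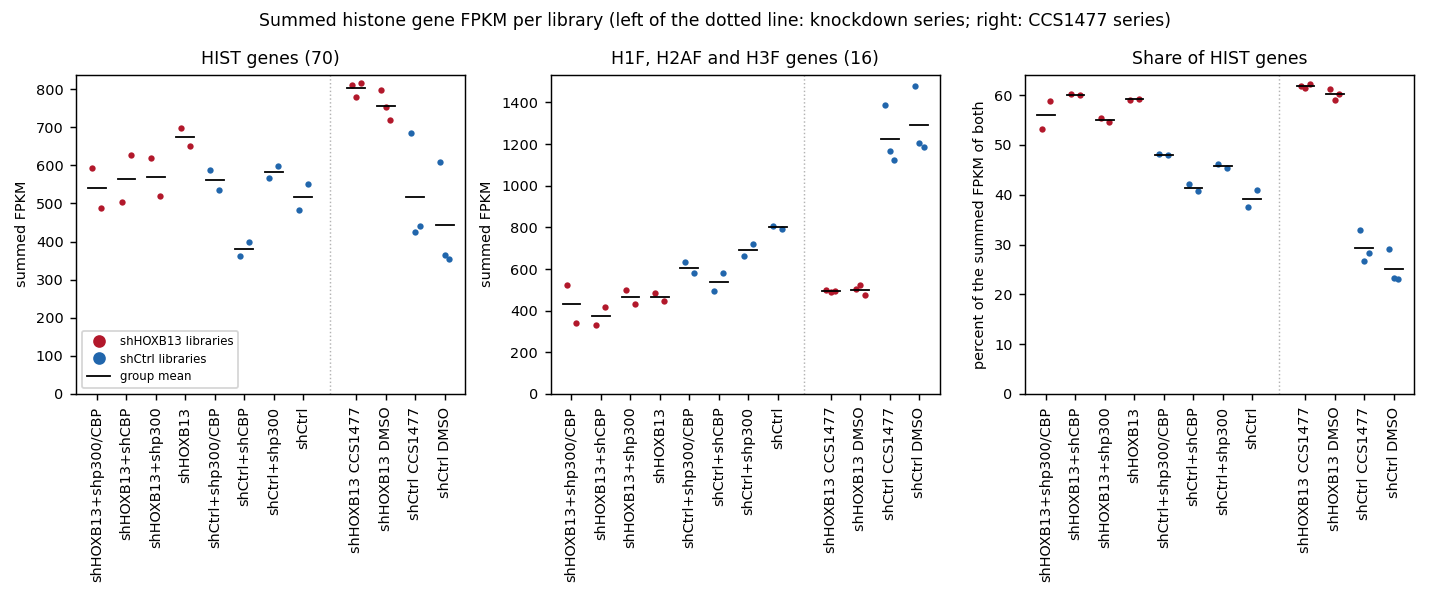
Summed FPKM of 70 HIST genes (left), of 16 H1F, H2AF and H3F genes (middle) and the HIST share of both in percent (right), 1 dot per library (red, shHOXB13; blue, shCtrl) with the group mean as a black line; the knockdown series is left of the dotted line. The HIST share is 53.1% or more in every shHOXB13 library and 48.2% or less in every shCtrl library.

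Within the HIST sum the families did not move alike. Summed H1 members of the HIST clusters were at 201 and 197 FPKM in shHOXB13 libraries, against 63.1 and 72.1 FPKM in shCtrl libraries, and summed H4 members were at 92.8 and 87.5 FPKM in shHOXB13 libraries, against 40.2 and 47.7 FPKM in shCtrl libraries. Summed H2B members were at 236 and 218 FPKM in shHOXB13 libraries, against 170 and 167 FPKM in shCtrl libraries. H2A members lay the other way, at 142 and 116 FPKM in shHOXB13 libraries, against 181 and 232 FPKM in shCtrl libraries, and H3 members, at 27.2 and 30.5 FPKM against 29.1 and 31.96 FPKM, overlapped. In the CCS1477 series H4 members stood farthest apart, at 136, 129.7 and 137 FPKM in shHOXB13 DMSO libraries, against 32.2, 15.6 and 15.5 FPKM in shCtrl DMSO libraries. These sums rest largely on 1 gene each for H1 (HIST1H1C) and H4 (HIST1H4H).

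After HOXB13 knockdown 20 of the 67 members tested in the knockdown series were called, in both directions. With 17678 genes in the fit, a member was called at an adjusted p under 0.05 and a change of at least 1.5-fold. Members called higher in shHOXB13 libraries numbered 8, all HIST genes (11.9%, background over all genes 7.15%). Members called lower numbered 12, of which 6 were HIST genes and 6 were H1F, H2AF or H3F genes (17.9%, background 26.8%). In the CCS1477 series, with 66 members among 15907 genes, 16 were called higher in shHOXB13 DMSO libraries, again all HIST genes (24.2%, background 8.58%). Of the 15 called lower (22.7%, background 30.6%), 7 were HIST and 8 H1F, H2AF or H3F genes. The median log2 difference was −0.33 over all genes in both series, and −0.01 and 0.44 over the HIST genes tested and −0.99 and −1.33 over the 10 H1F, H2AF and H3F genes tested in the knockdown and the CCS1477 series. Because of that shift each difference below is also given relative to the median gene. Under median-of-ratios scaling of the libraries the calls split into 9 higher and 8 lower in the knockdown series and 18 higher and 11 lower in the CCS1477 series. Without shCtrl DMSO 1 they split into 20 higher and 10 lower.

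**Figure D2:**
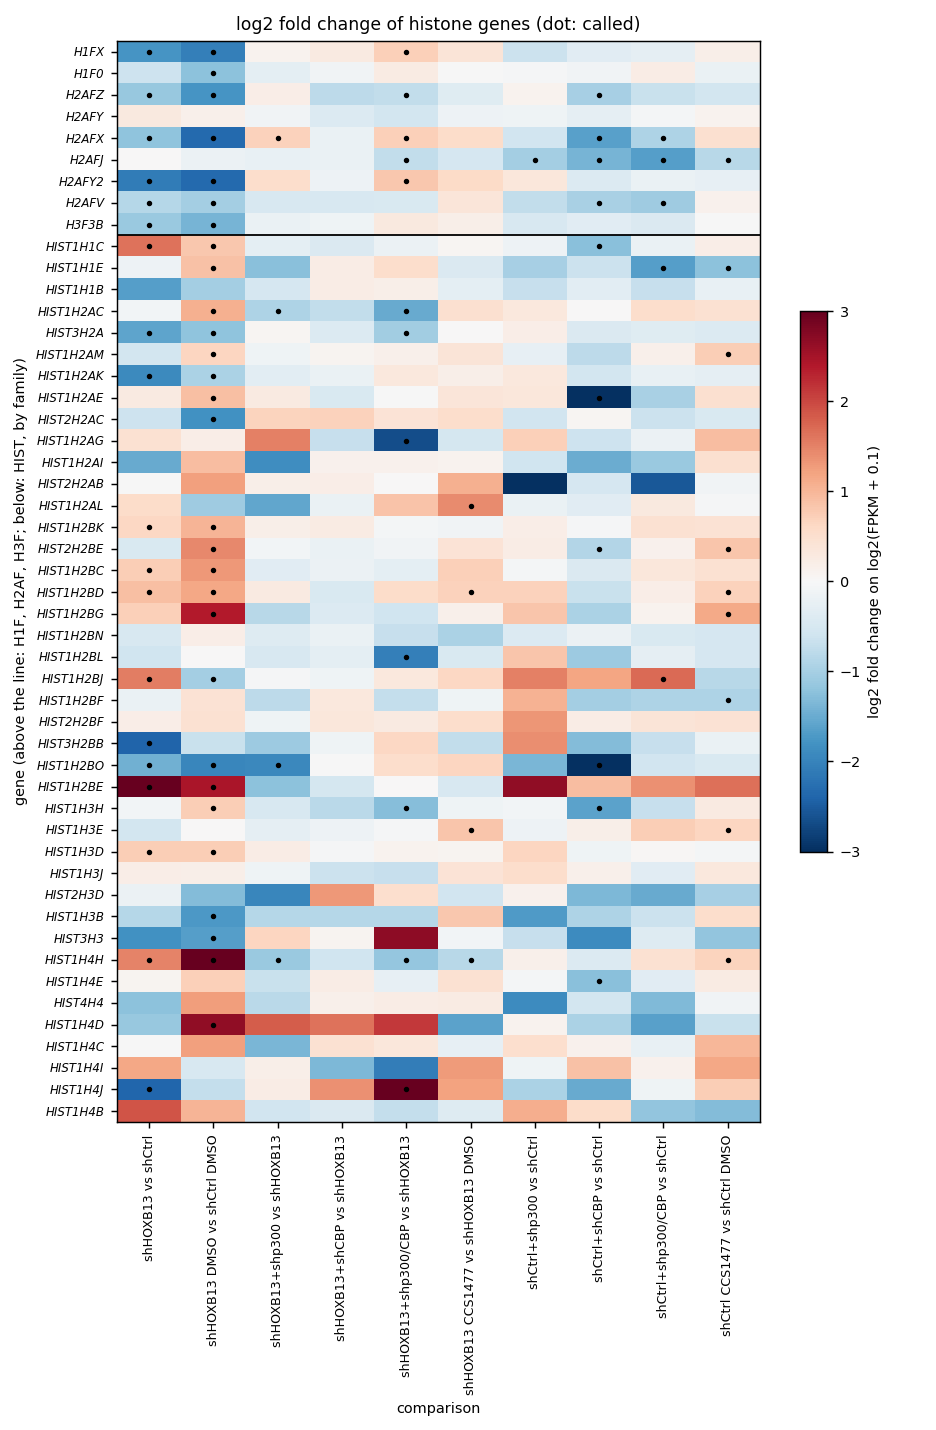
Log2 fold change on the log2(FPKM + 0.1) scale (colour, from −3 in blue to 3 in red, with larger values drawn at the end colours) of the H1F, H2AF and H3F genes (above the line) and HIST genes (below) that reached a mean of 1 FPKM in some group in 10 comparisons; a dot marks a called member. In the 2 left columns, HOXB13 knockdown, all dots above the line are blue and those below it are of both colours.

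Non-polyadenylated RNAs also moved with shHOXB13. The summed FPKM of 30 such RNAs (7SL, 7SK, small nuclear and small Cajal body RNAs and others) was 976 and 1501 in shHOXB13 libraries, against 287 and 685 in shCtrl libraries, with 3 of 24 tested called higher and 1 lower. In the CCS1477 series it was 57.2 to 367 in shHOXB13 DMSO libraries, against 44.3 to 149.9 in shCtrl DMSO libraries, which overlapped, with 3 of 19 called higher. RN7SL1 was called in both, with log2 differences of 1.84 and 1.85. RNU1-1, RNU2-1, RNU7-1, SCARNA13 and RNY3 were at 0 in all libraries. Reads in genes made up 68.8% and 66.3% in shHOXB13 libraries, against 74.3% and 72.2% in shCtrl libraries. Fibroblast markers summed to 4.42 to 5.31 FPKM in shHOXB13 libraries, against 1.16 to 1.62 FPKM in shCtrl libraries, with 2 of 2 tested called higher. In shHOXB13 DMSO libraries they summed to 2.55 to 2.81 FPKM, against 2.65 to 2.99 FPKM in shCtrl DMSO libraries, with 0 of 2 called. Immune markers summed to 9.30 to 12.3 FPKM in shHOXB13 libraries, against 4.18 to 5.74 FPKM in shCtrl libraries, with 1 of 1 tested (CD68) called higher. In shHOXB13 DMSO libraries they summed to 5.27 to 7.26 FPKM, against 4.28 to 4.53 FPKM in shCtrl DMSO libraries, with 0 of 1 called. Germline markers summed to 4.46 to 4.63 FPKM in shHOXB13 libraries, against 0.794 to 0.936 FPKM in shCtrl libraries, with 1 of 1 tested (SYCP3) called higher there and with DMSO. COL1A2, CD3E and DAZL were at 0 in all libraries of the knockdown series. The part of all these in the histone results was not tested.

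Among replacement variants, 6 of the 9 genes that reached 1 FPKM were called lower in both series. Over all genes 26.8% and 30.6% were called lower in the knockdown and the CCS1477 series, and the share lower in both is not given. H2AFY2, which codes for macroH2A2, a variant with a large extra domain, was at 5.21 and 6.12 FPKM in the shHOXB13 libraries, against 25.3 and 23.8 FPKM in the shCtrl libraries. The groups lay far apart, with a log2 difference of −2.10 ± 0.17 (SE), or −1.77 relative to the median gene, adjusted p = 3.6e-06. In the CCS1477 series it was at 5.30, 5.11 and 4.99 FPKM in the shHOXB13 DMSO libraries, against 26.7, 25.7 and 26.7 FPKM in the shCtrl DMSO libraries (−2.34 ± 0.07 (SE), or −2.01 relative to the median gene, adjusted p = 7.6e-10). H2AFY, its paralog for macroH2A1, was at 155 and 157 FPKM in the shHOXB13 libraries, against 131 and 122 FPKM in the shCtrl libraries, and at 141, 145 and 128 FPKM in the shHOXB13 DMSO libraries, against 105, 135 and 133 FPKM in the shCtrl DMSO libraries. It was not called in either series (log2 differences 0.30, adjusted p = 0.12, and 0.16, adjusted p = 0.28), so only 1 macroH2A gene passed the test; the difference between the paralogs was not tested.

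Linker histone variants fell as well, H1FX in both series and H1F0 in 1. H1FX was at 44.4 and 40.6 FPKM in the shHOXB13 libraries, against 133 and 159 FPKM in the shCtrl libraries (−1.78 ± 0.19 (SE), or −1.44 relative to the median gene, adjusted p = 3.6e-05). With DMSO it was at 59.9, 62.4 and 57.5 FPKM in the shHOXB13 DMSO libraries, against 289, 239 and 225 FPKM in the shCtrl DMSO libraries (−2.06 ± 0.13 (SE), or −1.73 relative to the median gene, adjusted p = 1.2e-07). The groups compared did not overlap in either series. H1F0 was at 44.6 and 39.3 FPKM in the shHOXB13 libraries, against 72.5 and 57.3 FPKM in the shCtrl libraries and was not called there (−0.62 ± 0.28 (SE), or −0.29 relative to the median gene, adjusted p = 0.096). With DMSO it was at 41.3, 49.7 and 46.1 FPKM in the shHOXB13 DMSO libraries, against 116, 105 and 102 FPKM in the shCtrl DMSO libraries, which was called (−1.24 ± 0.10 (SE), or −0.91 relative to the median gene, adjusted p = 9.4e-07). H1FX shares its start region with the antisense RNA H1FX-AS1, and the counting did not use strand, so reads of the pair cannot be told apart where they overlap.

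The H2A variants of DNA repair and of promoters fell together. H2AFX was at 18.3 and 16.3 FPKM in the shHOXB13 libraries, against 34.2 and 47.5 FPKM in the shCtrl libraries (−1.22 ± 0.17 (SE), or −0.89 relative to the median gene, adjusted p = 0.00024), and at 33.1, 32.2 and 30.6 FPKM in the shHOXB13 DMSO libraries, against 204, 151 and 138 FPKM in the shCtrl DMSO libraries (−2.34 ± 0.15 (SE), or −2.01 relative to the median gene, adjusted p = 1.5e-07). Its largest values were those of the shCtrl cells of the CCS1477 series, in which no shHOXB13 library came near them. H2AFZ was at 118 and 98.8 FPKM in the shHOXB13 libraries, against 243 and 234 FPKM in the shCtrl libraries (−1.14 ± 0.24 (SE), or −0.81 relative to the median gene, adjusted p = 0.0031), and at 122, 126 and 113 FPKM in the shHOXB13 DMSO libraries, against 489.7, 374 and 375 FPKM in the shCtrl DMSO libraries (−1.77 ± 0.11 (SE), or −1.44 relative to the median gene, adjusted p = 7.9e-08). H2AFV, which codes for the second form of H2A.Z, was at 11.7 and 10.2 FPKM in the shHOXB13 libraries, against 22.4 and 17.7 FPKM in the shCtrl libraries (−0.86 ± 0.20 (SE), or −0.53 relative to the median gene, adjusted p = 0.0057), and at 13.5, 11.96 and 10.6 FPKM in the shHOXB13 DMSO libraries, against 24.9, 24.6 and 23.7 FPKM in the shCtrl DMSO libraries (−1.02 ± 0.09 (SE), or −0.70 relative to the median gene, adjusted p = 1.1e-06). The groups did not overlap in any of these 3 genes in either series.

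H3F3B, 1 of the pair of genes for H3.3, was at 48.5 and 45.6 FPKM in the shHOXB13 libraries, against 111 and 93.3 FPKM in the shCtrl libraries (−1.11 ± 0.35 (SE), or −0.78 relative to the median gene, adjusted p = 0.024), and at 53.5, 51.5 and 46.2 FPKM in the shHOXB13 DMSO libraries, against 172, 113 and 123 FPKM in the shCtrl DMSO libraries (−1.40 ± 0.16 (SE), or −1.08 relative to the median gene, adjusted p = 1.2e-05). H2AFJ, which codes for H2A.J, was at 38.02 and 34.5 FPKM in the shHOXB13 libraries, against 33.9 and 38.2 FPKM in the shCtrl libraries (0.01 ± 0.19 (SE), or 0.34 relative to the median gene, adjusted p = 1), and at 35.6, 38.04 and 38.2 FPKM in the shHOXB13 DMSO libraries, against 48.97, 39.2 and 39.3 FPKM in the shCtrl DMSO libraries (−0.18 ± 0.11 (SE), or 0.15 relative to the median gene, adjusted p = 0.18), so it was not called in either series. The calls of H2AFV and H3F3B in the knockdown series were lost under median-of-ratios scaling (log2 differences −0.46 and −0.71). That of H3F3B was also lost without any 1 of the 4 libraries (−1.24 to −0.99), and that of H2AFV without shCtrl 1 (−0.69) or shHOXB13 2 (−0.76). All the other calls of this group were kept without any 1 library.

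**Figure D3:**
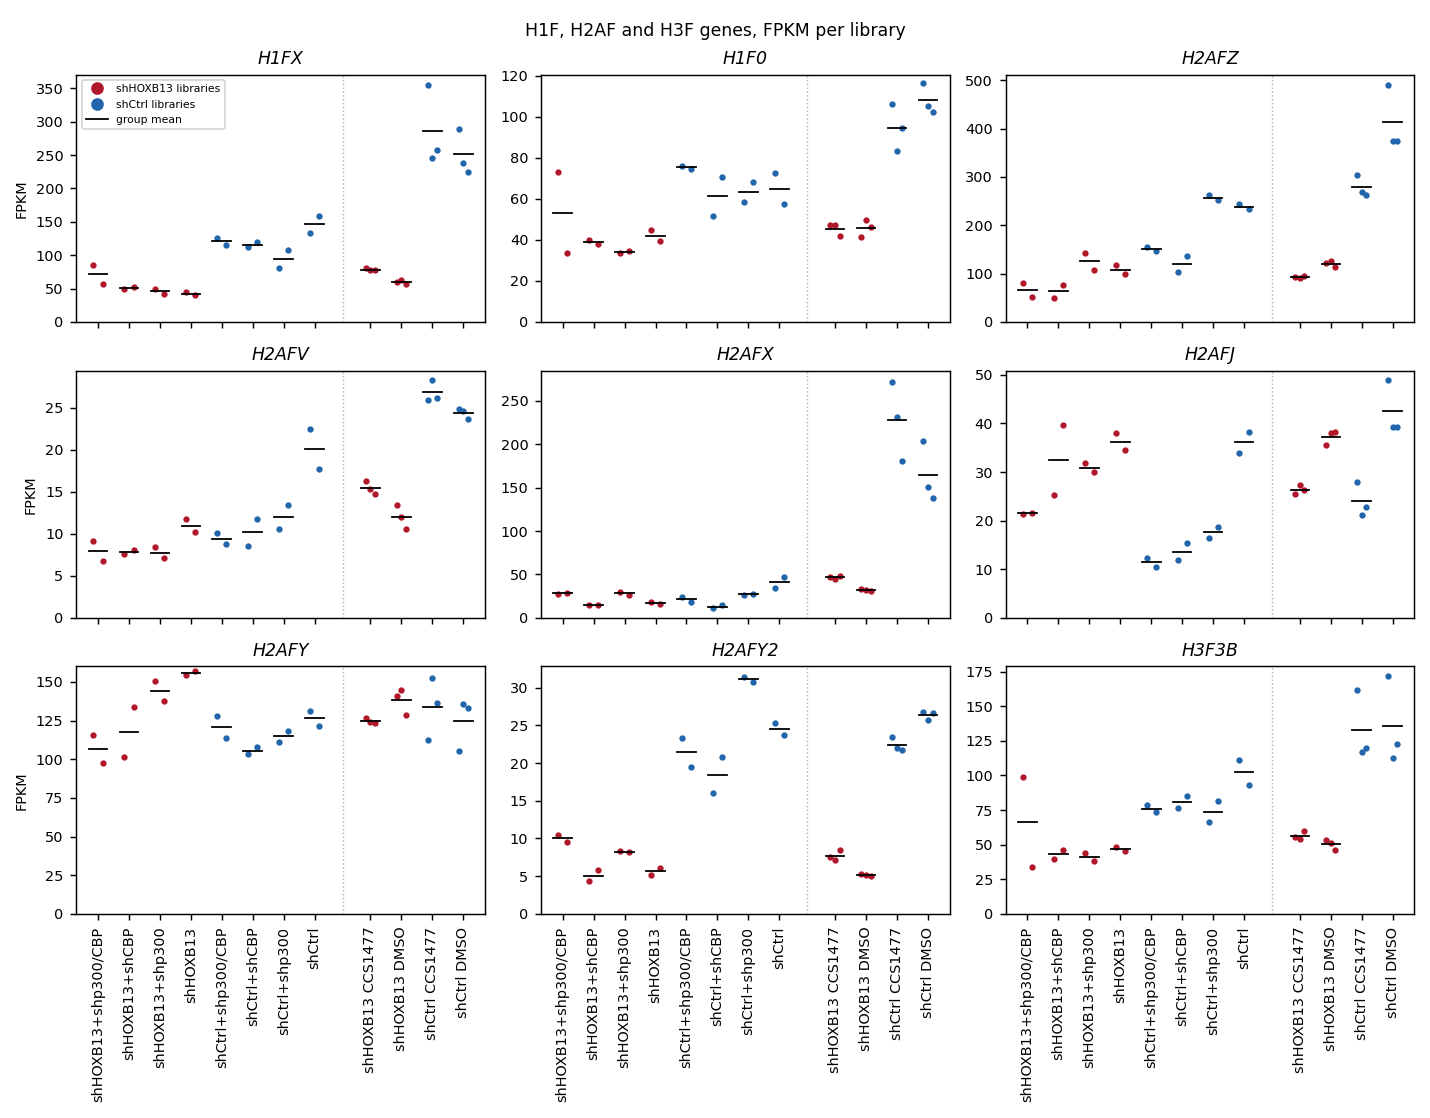
FPKM (linear axis from 0) of the 9 H1F, H2AF and H3F genes that reached a mean of 1 FPKM in some group, 1 dot per library (red, shHOXB13; blue, shCtrl), group means as black lines, knockdown series left and CCS1477 series right of the dotted line. H2AFY2 is lower in every shHOXB13 library (at most 10.4 FPKM) than in any shCtrl library (at least 16.1 FPKM), and H2AFY is not.

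HIST genes called higher came from the H1, H2B, H3 and H4 families in the knockdown series and all 5 families in the CCS1477 series. HIST1H4H, 1 of the many genes for H4, was called in both. It was at 75.8 and 70.8 FPKM in the shHOXB13 libraries, against 26.7 and 25.7 FPKM in the shCtrl libraries (1.48 ± 0.27 (SE), or 1.81 relative to the median gene, adjusted p = 0.0013), and at 127, 118 and 120.3 FPKM in the shHOXB13 DMSO libraries, against 18.2, 10.3 and 12.2 FPKM in the shCtrl DMSO libraries (3.19 ± 0.22 (SE), or 3.52 relative to the median gene, adjusted p = 2e-07). The lowest shHOXB13 DMSO value was several times the highest shCtrl DMSO value. HIST1H1C, the gene for H1.2 and the most abundant HIST gene here, was at 197 and 195 FPKM in the shHOXB13 libraries, against 60.6 and 67.2 FPKM in the shCtrl libraries (1.62 ± 0.17 (SE), or 1.95 relative to the median gene, adjusted p = 2.9e-05), and at 166, 167 and 147 FPKM in the shHOXB13 DMSO libraries, against 116, 79.3 and 81.99 FPKM in the shCtrl DMSO libraries (0.81 ± 0.16 (SE), or 1.14 relative to the median gene, adjusted p = 0.0011). In both series the groups did not overlap, and shCtrl DMSO 1 was the highest of its group.

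The H2B genes that rose in both series were HIST1H2BK, HIST1H2BD and HIST1H2BC, with HIST1H2BE at few reads. HIST1H2BK was at 128 and 129 FPKM in the shHOXB13 libraries, against 84.5 and 83.8 FPKM in the shCtrl libraries (0.61 ± 0.13 (SE), or 0.94 relative to the median gene, adjusted p = 0.0028), and at 119.9, 106 and 104 FPKM in the shHOXB13 DMSO libraries, against 84.02, 47.1 and 39.2 FPKM in the shCtrl DMSO libraries (1.03 ± 0.28 (SE), or 1.35 relative to the median gene, adjusted p = 0.0075). HIST1H2BD was at 30.3 and 23.9 FPKM in the shHOXB13 libraries, against 14.1 and 14.7 FPKM in the shCtrl libraries (0.90 ± 0.22 (SE), or 1.23 relative to the median gene, adjusted p = 0.0068), and at 15.4, 15.9 and 13.1 FPKM in the shHOXB13 DMSO libraries, against 8.91, 5.77 and 5.44 FPKM in the shCtrl DMSO libraries (1.16 ± 0.17 (SE), or 1.49 relative to the median gene, adjusted p = 0.00012). No values of the groups crossed in these comparisons. HIST1H2BC was at 24.4 and 20.4 FPKM in the shHOXB13 libraries, against 12.6 and 14.3 FPKM in the shCtrl libraries (0.73 ± 0.18 (SE), or 1.07 relative to the median gene, adjusted p = 0.0078), and at 39.8, 26.9 and 32.9 FPKM in the shHOXB13 DMSO libraries, against 23.2, 7.31 and 13.8 FPKM in the shCtrl DMSO libraries (1.30 ± 0.31 (SE), or 1.63 relative to the median gene, adjusted p = 0.0032). HIST1H2BE, with 12 reads in shHOXB13 libraries against 1 in shCtrl libraries and 7 against 0 with DMSO, was called in both at counts too low for a fold to be given. In the knockdown series the calls of HIST1H2BC were lost without shCtrl 1 (0.64) or shHOXB13 1 (0.60), and that of HIST1H2BD without shHOXB13 1 (0.73).

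A pair of H2B genes was called in the CCS1477 series only. HIST2H2BE was at 74.9, 65.7 and 60.7 FPKM in the shHOXB13 DMSO libraries, against 28.3, 24.2 and 22.1 FPKM in the shCtrl DMSO libraries (1.43 ± 0.12 (SE), or 1.76 relative to the median gene, adjusted p = 1.5e-06). In the knockdown series its shHOXB13 libraries were the lower ones, at 29.3 and 28.8 FPKM in the shHOXB13 libraries, against 42.03 and 37.5 FPKM in the shCtrl libraries (−0.45 ± 0.17 (SE), or −0.12 relative to the median gene, adjusted p = 0.051). HIST1H2BG was at 14.5, 11.6 and 11.5 FPKM in the shHOXB13 DMSO libraries, against 3.06, 1.74 and 2.26 FPKM in the shCtrl DMSO libraries (2.39 ± 0.19 (SE), or 2.71 relative to the median gene, adjusted p = 7e-07), and at 11.2 and 7.81 FPKM in the shHOXB13 libraries, against 5.38 and 5.96 FPKM in the shCtrl libraries (0.71 ± 0.44 (SE), or 1.04 relative to the median gene, adjusted p = 0.23). Whether the 2 series differed in these genes was not tested, since they were fitted apart. HIST1H2BJ was called in opposite directions, at 2.82 and 1.97 FPKM in the shHOXB13 libraries, against 0.602 and 0.916 FPKM in the shCtrl libraries (1.54 ± 0.41 (SE), or 1.87 relative to the median gene, adjusted p = 0.011) and at 3.62, 1.75 and 2.69 FPKM in the shHOXB13 DMSO libraries, against 6.43, 3.90 and 6.03 FPKM in the shCtrl DMSO libraries (−1.02 ± 0.35 (SE), or −0.69 relative to the median gene, adjusted p = 0.025). Its first call rested on 26 reads against 10 and was lost without shCtrl 1 (1.27) or shHOXB13 1 (1.29); the second was lost without shCtrl DMSO 1 (−0.89), shCtrl DMSO 3 (−0.93), shHOXB13 DMSO 2 (−0.75) or shHOXB13 DMSO 3 (−1.05), and under median-of-ratios scaling (−0.68).

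H2A and H3 genes were also called higher. HIST1H2AC was at 91.2, 94.1 and 90.6 FPKM in the shHOXB13 DMSO libraries, against 55.9, 40.02 and 37.2 FPKM in the shCtrl DMSO libraries (1.07 ± 0.17 (SE), or 1.40 relative to the median gene, adjusted p = 0.00023). In the knockdown series its groups overlapped, at 85.5 and 68.7 FPKM in the shHOXB13 libraries, against 77.5 and 85.2 FPKM in the shCtrl libraries (−0.08 ± 0.22 (SE), or 0.25 relative to the median gene, adjusted p = 0.81). HIST1H3D was called higher in both series (0.75 and 0.73), with overlapping groups in the CCS1477 series. HIST1H2AD lies within the span of HIST1H3D, so reads of the pair cannot be told apart where they overlap. HIST1H3H was called with DMSO, at 25.97, 26.5 and 21.4 FPKM in the shHOXB13 DMSO libraries, against 17.8, 14.5 and 12.03 FPKM in the shCtrl DMSO libraries (0.75 ± 0.14 (SE), or 1.07 relative to the median gene, adjusted p = 0.00059). HIST1H2AE (0.90), HIST1H2AM (0.65) and HIST1H1E (0.88), the gene for H1.4, were called higher there as well, and HIST1H1T (8 reads against 0) and HIST1H4D (11 against 1) at few reads. The calls of HIST1H2AM and HIST1H1E were each lost without 1 of several libraries, shCtrl DMSO 3 among them (0.45 and 0.72).

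**Figure D4:**
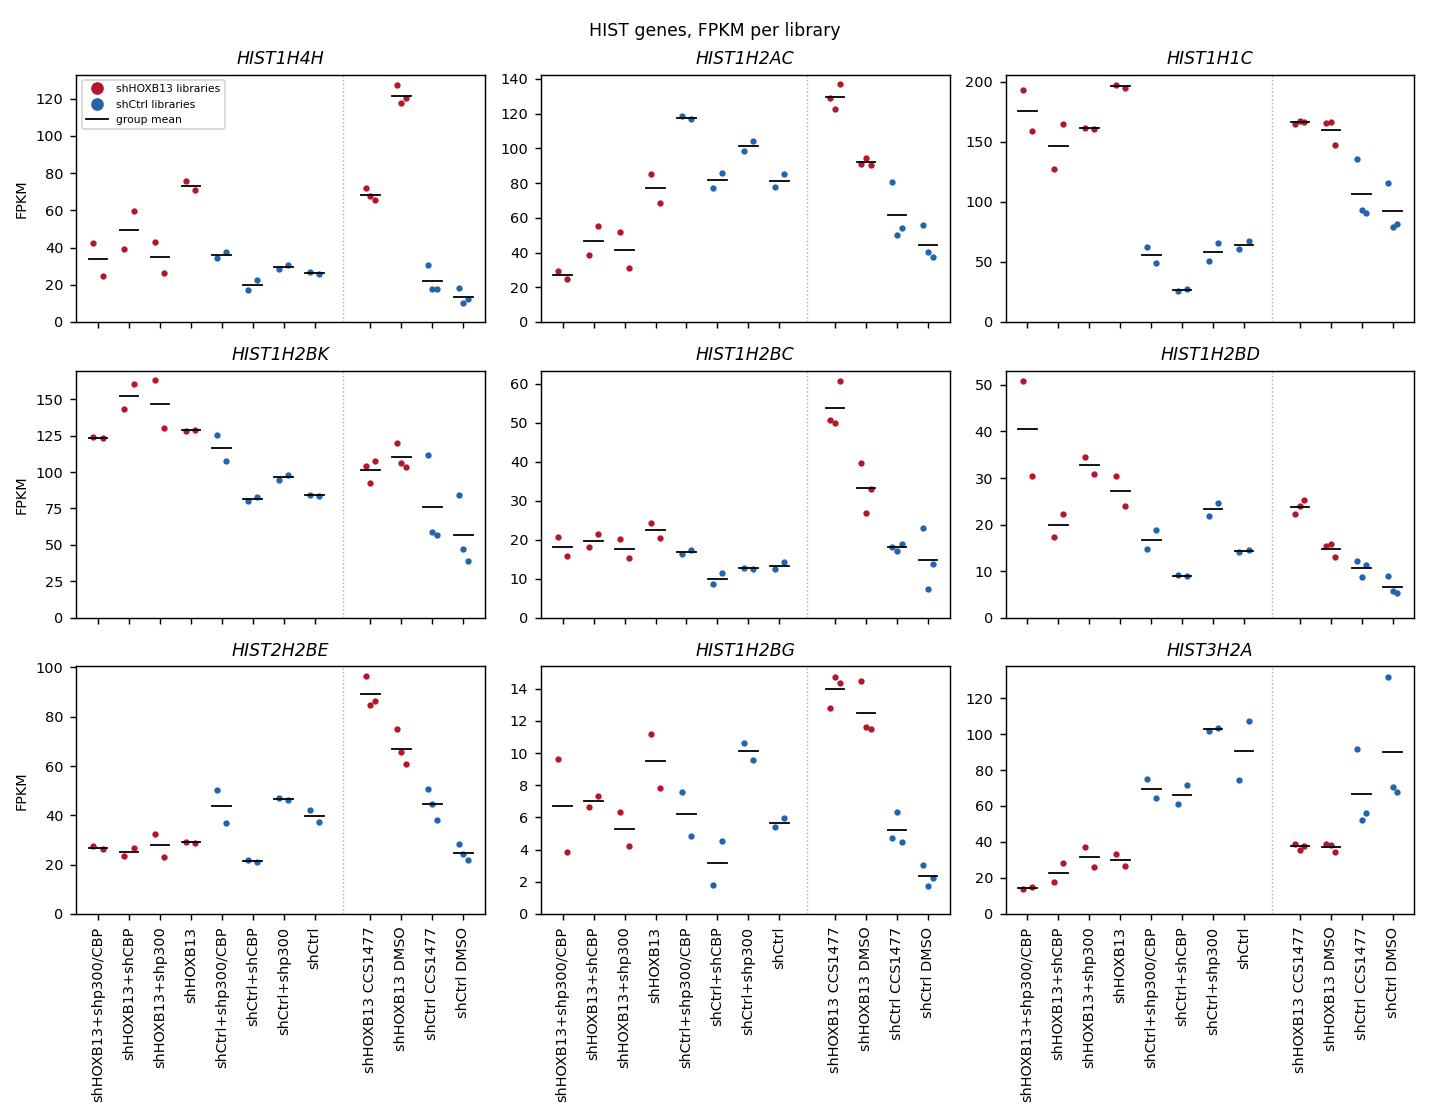
FPKM (linear axis from 0) of 9 HIST genes, 1 dot per library (red, shHOXB13; blue, shCtrl), group means as black lines, knockdown series left and CCS1477 series right of the dotted line. HIST1H4H is highest in the shHOXB13 and shHOXB13 DMSO libraries, HIST1H2AC is lowest in the shHOXB13+shp300/CBP libraries at 29.2 and 24.6 FPKM, and HIST3H2A is lower in every shHOXB13 library.

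HIST genes called lower numbered 6 in shHOXB13 libraries and 7 in shHOXB13 DMSO libraries. HIST3H2A, an H2A gene of the chromosome 1 cluster, was at 33.5 and 26.5 FPKM in the shHOXB13 libraries, against 74.5 and 107 FPKM in the shCtrl libraries (−1.58 ± 0.24 (SE), or −1.25 relative to the median gene, adjusted p = 0.00037), and at 38.8, 38.5 and 34.6 FPKM in the shHOXB13 DMSO libraries, against 132, 70.5 and 67.9 FPKM in the shCtrl DMSO libraries (−1.20 ± 0.24 (SE), or −0.87 relative to the median gene, adjusted p = 0.0012). HIST1H2AK was at 5.04 and 2.51 FPKM in the shHOXB13 libraries, against 11.8 and 15.6 FPKM in the shCtrl libraries (−1.90 ± 0.31 (SE), or −1.57 relative to the median gene, adjusted p = 0.00055), and at 3.99, 4.89 and 4.13 FPKM in the shHOXB13 DMSO libraries, against 11.02, 6.72 and 8.003 FPKM in the shCtrl DMSO libraries (−0.94 ± 0.31 (SE), or −0.62 relative to the median gene, adjusted p = 0.02). Neither gene had overlapping groups, though the second call of HIST1H2AK was lost without shCtrl DMSO 1 (−0.75), shHOXB13 DMSO 1 (−0.89) or shHOXB13 DMSO 3 (−0.91), and under median-of-ratios scaling (−0.61). HIST2H2AC was called with DMSO only, at 1.47, 1.29 and 0.395 FPKM in the shHOXB13 DMSO libraries, against 6.23, 3.03 and 2.30 FPKM in the shCtrl DMSO libraries (−1.82 ± 0.50 (SE), or −1.50 relative to the median gene, adjusted p = 0.0084). The remaining calls rested on few reads: HIST3H2BB (2 against 14), HIST1H4J (1 against 10), HIST1H4A (0 against 4) and HIST1H2BO (3 against 12) in the knockdown series, and HIST1H2BO (6 against 27), HIST1H3B (3 against 9), HIST3H3 (1 against 5) and H3F3C (0 against 4) with DMSO, so no fold is given. HIST3H2BB, HIST1H2BO and HIST1H4J lost their knockdown-series calls without shHOXB13 2 or shCtrl 2, and HIST1H2BO and HIST1H4J also under median-of-ratios scaling.

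Set side by side, 16 members were called the same way in both series. The 7 higher in both were HIST1H1C, HIST1H2BC, HIST1H2BD, HIST1H2BE, HIST1H2BK, HIST1H3D and HIST1H4H, and the 9 lower in both were H1FX, H2AFV, H2AFX, H2AFY2, H2AFZ, H3F3B, HIST1H2AK, HIST1H2BO and HIST3H2A. These are 16 of the 20 members called in the knockdown series and of the 31 called in the CCS1477 series, and HIST1H2BJ was called in opposite directions. Of the calls at few reads among them, that of HIST1H2BE in the knockdown series was lost without shHOXB13 1, shHOXB13 2 or shCtrl 2 and that with DMSO at a pseudocount of 1, and that of HIST1H2BO with DMSO was lost under median-of-ratios scaling and without shHOXB13 DMSO 1, shHOXB13 DMSO 3, shCtrl DMSO 1 or shCtrl DMSO 2. Over the 66 members tested in both, the differences had the same sign in 40 and Pearson's r was 0.52 (Spearman's rho 0.50). Over the 53 that reached 1 FPKM the same sign was seen in 35 and r was 0.57. Members of 1 cluster or family share sequence and are not independent points, and the series shared no library. Over all genes 7.15% and 8.58% were called higher, and 26.8% and 30.6% lower, in the knockdown and the CCS1477 series. The share of all genes called alike in both is not given, and both series used the same hairpin and cell line. The agreement therefore does not set histone genes apart from other genes.

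**Figure D5:**
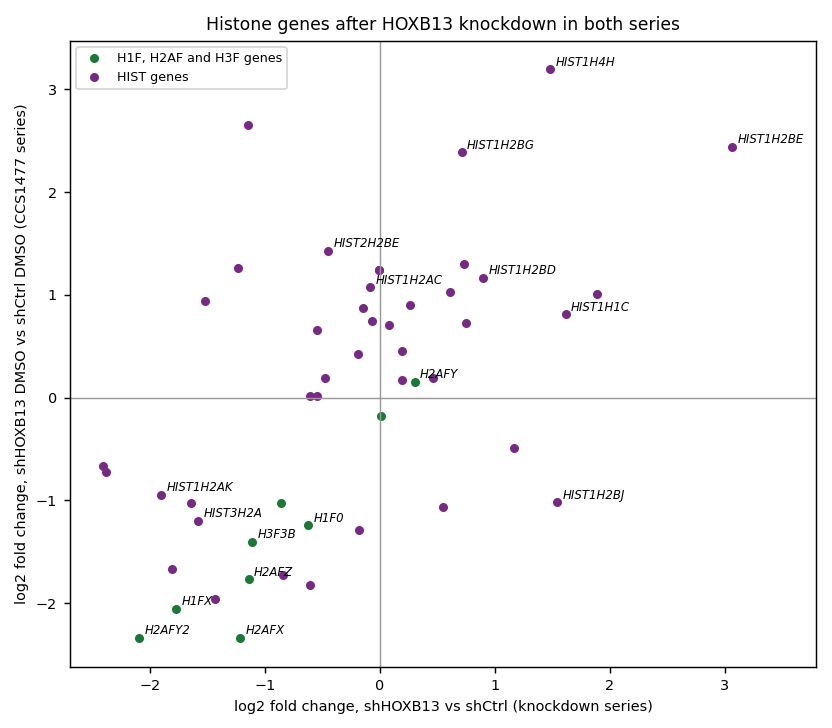
Log2 fold change after HOXB13 knockdown of each HIST gene (purple) and H1F, H2AF or H3F gene (green) that reached a mean of 1 FPKM in some group, knockdown series on the x axis and CCS1477 series (DMSO) on the y axis, both on log2(FPKM + 0.1). HIST1H4H lies at 1.48 and 3.19, most green points lie in the lower left, and HIST1H2BJ lies in the lower right.

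Depletion of p300 in HOXB13-knockdown cells was followed by few calls, at shares near those of all genes. Of 67 members, 3 were called lower in shHOXB13+shp300 than in shHOXB13 libraries (4.48%, background 3.09%) and 1 higher (1.49%, background 3.15%). HIST1H4H was at 42.9 and 26.6 FPKM in the shHOXB13+shp300 libraries, against 75.8 and 70.8 FPKM in the shHOXB13 libraries (−1.11 ± 0.27 (SE), adjusted p = 0.032). HIST1H2AC was at 51.8 and 31.2 FPKM in the shHOXB13+shp300 libraries, against 85.5 and 68.7 FPKM in the shHOXB13 libraries (−0.93 ± 0.22 (SE), adjusted p = 0.03). H2AFX went the other way, at 29.4 and 26.9 FPKM in the shHOXB13+shp300 libraries, against 18.3 and 16.3 FPKM in the shHOXB13 libraries (0.70 ± 0.17 (SE), adjusted p = 0.033). The groups did not overlap in any of these, and the third fall was HIST1H2BO, with 0 reads against 3. The calls of HIST1H4H and HIST1H2AC were kept only without shHOXB13+shp300 1, and all 4 calls were lost without shHOXB13+shp300 2, shHOXB13 1 or shHOXB13 2. Non-polyadenylated RNAs summed to 445 and 1117 FPKM in shHOXB13+shp300 libraries, against 976 and 1501 in shHOXB13 libraries.

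Depletion of CBP in the same cells gave 0 calls in either direction (limma; background 0.385% higher and 1.08% lower), with 0 members higher and 7 lower at an unadjusted p under 0.05, and 0 calls under each of the other settings. HIST1H2AC was at 38.3 and 55.2 FPKM in the shHOXB13+shCBP libraries, against 85.5 and 68.7 FPKM in the shHOXB13 libraries (−0.74 ± 0.22 (SE), adjusted p = 0.1), and HIST1H4H at 39.4 and 59.8 FPKM in the shHOXB13+shCBP libraries, against 75.8 and 70.8 FPKM in the shHOXB13 libraries (−0.59 ± 0.27 (SE), adjusted p = 0.26). Both lay lower in both libraries without passing the test.

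With shp300/CBP 13 of 67 members were called in HOXB13-knockdown cells, 9 lower (13.4%, background 13.3%) and 4 higher (5.97%, background 9.06%). The 6 HIST genes called lower came from the H2A, H2B, H3 and H4 families. HIST1H2AC was at 29.2 and 24.6 FPKM in the shHOXB13+shp300/CBP libraries, against 85.5 and 68.7 FPKM in the shHOXB13 libraries (−1.51 ± 0.22 (SE), adjusted p = 0.00073). HIST1H4H was at 42.6 and 24.9 FPKM in the shHOXB13+shp300/CBP libraries, against 75.8 and 70.8 FPKM in the shHOXB13 libraries (−1.17 ± 0.27 (SE), adjusted p = 0.0089). Neither gene had overlapping groups. HIST1H3H was at 5.05 and 6.46 FPKM in the shHOXB13+shp300/CBP libraries, against 13.3 and 14.9 FPKM in the shHOXB13 libraries (−1.29 ± 0.34 (SE), adjusted p = 0.016), and HIST3H2A at 13.8 and 15.04 FPKM in the shHOXB13+shp300/CBP libraries, against 33.5 and 26.5 FPKM in the shHOXB13 libraries (−1.05 ± 0.24 (SE), adjusted p = 0.0081). HIST1H2AG (2 reads against 14) and HIST1H2BL (3 against 17) were called lower and HIST1H4J (12 against 1) higher at few reads, and the pseudogene H3F3AP4 fell at 12 reads against 32.

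Of the variants, H2AFJ and H2AFZ fell and H2AFY2, H1FX and H2AFX rose in shHOXB13+shp300/CBP libraries. H2AFJ was at 21.4 and 21.6 FPKM in the shHOXB13+shp300/CBP libraries, against 38.02 and 34.5 FPKM in the shHOXB13 libraries (−0.75 ± 0.19 (SE), adjusted p = 0.014), and H2AFZ at 81.04 and 51.5 FPKM in the shHOXB13+shp300/CBP libraries, against 118 and 98.8 FPKM in the shHOXB13 libraries (−0.74 ± 0.24 (SE), adjusted p = 0.043). H2AFY2 was at 10.4 and 9.60 FPKM in the shHOXB13+shp300/CBP libraries, against 5.21 and 6.12 FPKM in the shHOXB13 libraries (0.81 ± 0.17 (SE), adjusted p = 0.0045), and H2AFX at 27.6 and 29.2 FPKM in the shHOXB13+shp300/CBP libraries, against 18.3 and 16.3 FPKM in the shHOXB13 libraries (0.72 ± 0.17 (SE), adjusted p = 0.01). H1FX was at 85.3 and 57.4 FPKM in the shHOXB13+shp300/CBP libraries, against 44.4 and 40.6 FPKM in the shHOXB13 libraries (0.72 ± 0.19 (SE), adjusted p = 0.017). All groups were separate, but the call of H1FX was lost without shHOXB13+shp300/CBP 1 (0.43), shHOXB13 1 (0.78) or shHOXB13 2 (0.66). Of the members named with values, HIST1H2AC and H2AFY2 alone kept their calls without any 1 library. In all, 5 members were called without shHOXB13 1 and 7 without shHOXB13 2. Immune markers summed to 40.2 and 13.8 FPKM in shHOXB13+shp300/CBP libraries 1 and 2, against 9.30 and 12.3 FPKM in shHOXB13 libraries, and fibroblast markers to 18.1 and 6.27 FPKM, against 5.31 and 4.42 FPKM. Luminal prostate markers summed to 1147 and 1238 FPKM in shHOXB13+shp300/CBP libraries, against 4220 and 4345 FPKM in shHOXB13 libraries. Reads in genes made up 61.6% and 52.7% in shHOXB13+shp300/CBP libraries, against 68.8% and 66.3% in shHOXB13 libraries, and HOXB13 itself was lower (5.25 and 7.94 FPKM, against 11.2 and 11.35 FPKM, adjusted p = 0.0051). The part of these in the results was not tested. The call of H2AFZ was lost with no filter on low values and with the replicate block (both −0.74).

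In shCtrl cells p300 depletion was followed by few calls. With shp300, 2 of 67 members were called lower (background 2.09%) and 0 higher (limma; background 1%; at an unadjusted p under 0.05 the counts were 6 higher and 10 lower). H2AFJ was at 16.5 and 18.8 FPKM in the shCtrl+shp300 libraries, against 33.9 and 38.2 FPKM in the shCtrl libraries (−1.03 ± 0.19 (SE), adjusted p = 0.014), and the other was HIST1H4A, with 0 reads against 4. Neither call was kept when any 1 library was left out (H2AFJ, −1.13 to −0.94). HIST1H4H, at 28.2 and 30.5 FPKM in the shCtrl+shp300 libraries against 26.7 and 25.7 FPKM in the shCtrl libraries, and HIST1H2AC, at 98.2 and 104 against 77.5 and 85.2 FPKM, were not called.

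With shCBP, 11 of 67 members were called lower (background 6.67%) and 0 higher (limma; background 3.39%; 1 at an unadjusted p under 0.05). The median over all genes lay at −0.11. HIST1H1C was at 26.2 and 27.4 FPKM in the shCtrl+shCBP libraries, against 60.6 and 67.2 FPKM in the shCtrl libraries (−1.25 ± 0.17 (SE), or −1.14 relative to the median gene, adjusted p = 0.0017). H2AFX was at 11.6 and 14.4 FPKM in the shCtrl+shCBP libraries, against 34.2 and 47.5 FPKM in the shCtrl libraries (−1.63 ± 0.17 (SE), or −1.52 relative to the median gene, adjusted p = 0.00051), and H2AFJ at 11.9 and 15.4 FPKM in the shCtrl+shCBP libraries, against 33.9 and 38.2 FPKM in the shCtrl libraries (−1.41 ± 0.19 (SE), or −1.29 relative to the median gene, adjusted p = 0.0018). Each of these 3 was lower by more than the spread of its libraries and was called without any 1 of them, as was HIST1H2AE, at 0.159 and 0.530 FPKM in the shCtrl+shCBP libraries, against 4.11 and 6.77 FPKM in the shCtrl libraries (5 reads against 84; −3.74 ± 0.43 (SE), or −3.62 relative to the median gene, adjusted p = 0.00065). HIST1H3H was at 3.40 and 6.64 FPKM in the shCtrl+shCBP libraries, against 14.5 and 15.1 FPKM in the shCtrl libraries (−1.62 ± 0.34 (SE), or −1.51 relative to the median gene, adjusted p = 0.012), and HIST1H4E at 4.27 and 4.56 FPKM in the shCtrl+shCBP libraries, against 9.03 and 12.7 FPKM in the shCtrl libraries (−1.26 ± 0.25 (SE), or −1.15 relative to the median gene, adjusted p = 0.0092). The call of HIST1H3H was lost without shCtrl+shCBP 1 (−1.15), shCtrl 1 (−1.64) or shCtrl 2 (−1.59), and that of HIST1H4E without shCtrl+shCBP 1 (−1.21) or shCtrl 2 (−1.02). HIST2H2BE (−0.88), H2AFZ (−1.003) and H2AFV (−0.98) were lower too, with calls that were lost without shCtrl+shCBP 1 (−0.91, −0.81 and −0.75), and HIST1H2BO and HIST1H4A fell to 0 reads. Without shCtrl+shCBP 1 the calls numbered 5, without shCtrl 1 they numbered 6 and without shCtrl 2 they numbered 7. HOXB13 itself was lower in these libraries (43.2 and 51.5 FPKM, against 87.6 and 85.4 FPKM in shCtrl libraries, adjusted p = 0.0086).

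With shp300/CBP, 5 of 67 members were called lower (background 7.89%) and 2 higher (background 7.6%) in shCtrl cells. H2AFJ was at 12.4 and 10.5 FPKM in the shCtrl+shp300/CBP libraries, against 33.9 and 38.2 FPKM in the shCtrl libraries (−1.65 ± 0.19 (SE), adjusted p = 0.00026), the lowest of its 12 group levels. H2AFV was at 10.1 and 8.77 FPKM in the shCtrl+shp300/CBP libraries, against 22.4 and 17.7 FPKM in the shCtrl libraries (−1.07 ± 0.20 (SE), adjusted p = 0.0041), and H2AFX at 24.4 and 18.3 FPKM in the shCtrl+shp300/CBP libraries, against 34.2 and 47.5 FPKM in the shCtrl libraries (−0.93 ± 0.17 (SE), adjusted p = 0.0039). Groups were separate in all 3. HIST1H1E fell at 22 reads against 62 (−1.64 ± 0.40 (SE), adjusted p = 0.014) and HIST1H2BJ rose at 37 against 10 (1.71 ± 0.41 (SE), adjusted p = 0.014), while HIST1H4A (0 against 4) and HIST2H2BA (4 against 0) were called at few reads. Leaving out any 1 library left 4 calls, with those of H2AFJ and H2AFV kept each time and that of H2AFX lost without shCtrl+shp300/CBP 2 (−0.72). HIST1H4H (0.45, adjusted p = 0.3) and HIST1H2AC (0.53, adjusted p = 0.13) did not pass, with values above those of shCtrl libraries. HOXB13 itself was lower in these libraries too (53.7 and 44.98 FPKM, against 87.6 and 85.4 FPKM in shCtrl libraries, adjusted p = 0.0064).

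The effect of shp300/CBP differed between HOXB13-knockdown and control cells in 7 members by the interaction term, 5 with a more positive effect in HOXB13-knockdown cells (background 2.53%) and 2 with a more negative one (background 5.59%). The difference of effects was −2.04 ± 0.32 (SE), adjusted p = 0.004, for HIST1H2AC, which lay at 29.2 and 24.6 FPKM in shHOXB13+shp300/CBP libraries and at 118 and 117 FPKM in shCtrl+shp300/CBP libraries. For HIST1H4H it was −1.62 ± 0.39 (SE), adjusted p = 0.027. For H2AFX it was 1.64 ± 0.25 (SE), adjusted p = 0.0032, with the gene higher in HOXB13-knockdown cells and lower in control cells after shp300/CBP. H2AFY2 (1.01 ± 0.24 (SE), adjusted p = 0.024), HIST1H1E (2.17 ± 0.56 (SE), adjusted p = 0.037) and H1FX (0.99 ± 0.27 (SE), adjusted p = 0.046) followed, and HIST1H4A at 6 reads in all. Leaving out 1 library kept HIST1H2AC and H2AFX each time, and left between 2 calls (without shCtrl 2) and 8 (without shHOXB13+shp300/CBP 2). The call of HIST1H4H was lost without 6 of the 8 libraries (−1.69 to −1.55), as was that of HIST1H1E (1.54 to 2.37), that of H2AFY2 without 5 (0.88 to 1.06) and that of H1FX without 7 (0.70 to 1.12) and with the replicate block (0.99).

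With CCS1477 HIST1H4H fell in HOXB13-knockdown cells and HIST1H2BD and HIST1H3E rose. In HOXB13-knockdown cells 4 of 66 members were called higher (background 14.9%) and 2 lower (background 5.31%), while the median over all genes rose by 0.20. HIST1H4H fell, at 71.9, 67.5 and 65.4 FPKM in the shHOXB13 CCS1477 libraries, against 127, 118 and 120.3 FPKM in the shHOXB13 DMSO libraries (−0.83 ± 0.22 (SE), or −1.03 relative to the median gene, adjusted p = 0.0091). All 3 treated libraries lay below all 3 DMSO libraries and above all shCtrl libraries of the series, which reached 30.4 FPKM. HIST1H2BD rose, at 22.3, 24.1 and 25.3 FPKM in the shHOXB13 CCS1477 libraries, against 15.4, 15.9 and 13.1 FPKM in the shHOXB13 DMSO libraries (0.69 ± 0.17 (SE), or 0.49 relative to the median gene, adjusted p = 0.0077), and HIST1H3E was at 19.2, 19.1 and 19.2 FPKM in the shHOXB13 CCS1477 libraries, against 9.72, 12.6 and 9.91 FPKM in the shHOXB13 DMSO libraries (0.84 ± 0.22 (SE), or 0.64 relative to the median gene, adjusted p = 0.009). Both groups were separate, but the call of HIST1H2BD was lost under median-of-ratios scaling (0.48), where the split was 2 higher and 3 lower. HIST1H2AL (24 reads against 7), HIST1H2BB (10 against 2) and HIST1H1T (1 against 8) were called at few reads. HIST1H2AC was at 129, 123 and 137 FPKM in the shHOXB13 CCS1477 libraries, against 91.2, 94.1 and 90.6 FPKM in the shHOXB13 DMSO libraries and was not called (0.49 ± 0.17 (SE), or 0.29 relative to the median gene, adjusted p = 0.041). HIST1H2BC and HIST2H2BE also lay higher in every treated library, at 50.8, 49.99 and 60.7 against 39.8, 26.9 and 32.9 FPKM and at 96.6, 84.7 and 86.4 against 74.9, 65.7 and 60.7 FPKM, without being called (adjusted p = 0.087 and 0.019).

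In shCtrl cells CCS1477 raised 6 of 66 members (background 6.58%) and lowered 3 (background 5.56%). HIST2H2BE was at 50.9, 44.6 and 37.9 FPKM in the shCtrl CCS1477 libraries, against 28.3, 24.2 and 22.1 FPKM in the shCtrl DMSO libraries (0.83 ± 0.12 (SE), adjusted p = 0.00055), and HIST1H2BG at 4.74, 6.36 and 4.48 FPKM in the shCtrl CCS1477 libraries, against 3.06, 1.74 and 2.26 FPKM in the shCtrl DMSO libraries (1.13 ± 0.19 (SE), adjusted p = 0.0012). These 2 groups did not overlap. HIST1H2BD (0.70), HIST1H2AM (0.74), HIST1H4H (0.68) and HIST1H3E (0.64) were called higher although their groups overlapped, and in each shCtrl DMSO 1 was the highest DMSO library. These 4 calls were all lost without shCtrl DMSO 3 (0.57, 0.54, 0.63 and 0.50). H2AFJ fell, at 28.1, 21.2 and 22.8 FPKM in the shCtrl CCS1477 libraries, against 48.97, 39.2 and 39.3 FPKM in the shCtrl DMSO libraries (−0.82 ± 0.11 (SE), adjusted p = 0.00028). HIST1H1E was lower at 22 reads against 37 (−1.22 ± 0.31 (SE), adjusted p = 0.012) and HIST1H2BF at 22 against 30 (−0.92 ± 0.30 (SE), adjusted p = 0.042). Without shCtrl DMSO 1 the calls numbered 12 higher and 2 lower, without shCtrl DMSO 3 they numbered 2 and 3, and without shCtrl CCS1477 1 they numbered 3 and 5. The calls of H2AFJ, HIST1H1E, HIST1H2BG and HIST2H2BE were kept in all 6. Median-of-ratios scaling gave 4 higher and 4 lower.

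The effect of CCS1477 differed between HOXB13-knockdown and control cells in 3 members, 1 with a more positive effect in HOXB13-knockdown cells (background 6.71%) and 2 with a more negative one (background 2.45%). For HIST1H4H the difference of effects was −1.51 ± 0.30 (SE), or −1.64 relative to the median gene, adjusted p = 0.0083, as it lay lower with CCS1477 in HOXB13-knockdown cells and higher in control cells. HIST1H2BG had a difference of −0.96 ± 0.27 (SE), or −1.09 relative to the median gene, adjusted p = 0.034. H2AFY2 had one of 0.81 ± 0.11 (SE), or 0.68 relative to the median gene, adjusted p = 0.00082, at 7.51, 7.11 and 8.45 FPKM in shHOXB13 CCS1477 libraries, against 5.30, 5.11 and 4.99 FPKM in shHOXB13 DMSO libraries, and at 23.5, 21.9 and 21.7 FPKM in shCtrl CCS1477 libraries, against 26.7, 25.7 and 26.7 FPKM in shCtrl DMSO libraries. The calls of HIST1H4H and H2AFY2 were kept without any 1 of the 12 libraries, and that of HIST1H2BG was lost without 8 of them (−1.01 to −0.77).

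HIST1H4H was called in 8 of the 12 comparisons and H2AFJ in 5. Across the shHOXB13 groups of the knockdown series HIST1H4H lay between 24.9 and 75.8 FPKM (median 42.8), and across the shCtrl groups between 17.2 and 37.8 FPKM (median 27.5); the lowest of the shHOXB13 libraries were shHOXB13+shp300/CBP 2 and shHOXB13+shp300 2, which fell within the range of the shCtrl libraries. In the CCS1477 series it lay between 65.4 and 127 FPKM (median 94.8) in shHOXB13 libraries and between 10.3 and 30.4 FPKM (median 17.7) in shCtrl libraries, with no overlap. H2AFJ was called lower in 5 comparisons, those of shp300, shCBP, shp300/CBP and CCS1477 in shCtrl cells and of shp300/CBP in HOXB13-knockdown cells, and was called in neither comparison of shHOXB13 with shCtrl cells. The knockdown comparisons in shCtrl cells share the same 2 shCtrl libraries.

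Genes that work with histones were counted in 4 lists, and none of them was called higher in shHOXB13 cells of either series. The share of all genes called lower was 26.8% in the knockdown series and 30.6% with DMSO. Of 26 S-phase genes, 22 were lower in shHOXB13 libraries (median log2 difference −1.38) and 24 with DMSO (−1.89). RRM2, a subunit of the enzyme that makes deoxynucleotides, was at 0.127 ± 0.0503 FPKM in shHOXB13 libraries, against 5.87 ± 0.464 FPKM in shCtrl libraries (SD, n = 2 each). All 17 genes of G2 and mitosis were lower in both series (medians −2.90 and −3.21). Over all genes the median was −0.33 in both, as above. Factors of histone mRNA transcription and 3′ processing were lower in 7 of 19 and 11 of 19 (medians −0.57 and −0.72), CPSF2, a subunit of the cleavage complex, among them (8.79 ± 0.397 FPKM in shHOXB13 libraries, against 18.8 ± 2.26 FPKM in shCtrl libraries). Histone chaperones and exchange factors were lower in 13 of 25 in both series (medians −0.78 and −0.77). ASF1B, a chaperone of H3 and H4, was at 0.359 ± 0.0792 FPKM in shHOXB13 libraries, against 4.85 ± 1.12 FPKM in shCtrl libraries, and with DMSO at 2.40 ± 0.211 FPKM in shHOXB13 libraries, against 20.4 ± 0.268 FPKM in shCtrl libraries (n = 3 each). VPS72, which hands H2A.Z to its exchange complex, was at 16.7 ± 1.22 FPKM in shHOXB13 libraries, against 34.4 ± 2.10 FPKM in shCtrl libraries.

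In shCtrl cells S-phase genes were lower in 11, 12 and 18 of 26 with shp300, shCBP and shp300/CBP (background 2.09%, 6.67% and 7.89%), and G2 and mitosis genes in 9, 12 and 16 of 17. Factors of histone mRNA transcription and 3′ processing were lower in 0, 2 and 2 of 19 and chaperones and exchange factors in 2, 9 and 4 of 25. In HOXB13-knockdown cells 9 of 26 S-phase genes were lower and 1 higher with shp300/CBP, and 1 of 17 G2 and mitosis genes was lower and 3 higher. Over all genes 13.3% were lower and 9.06% higher there. With CCS1477 1 of 26 S-phase genes and 2 of 17 G2 and mitosis genes were called higher in shHOXB13 cells (background 14.9%). In shCtrl cells 1 of 26 S-phase genes was called higher (background 6.58%).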

How the data were processed

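RNA was sequenced from 28 libraries of LNCaP cells (poly(A) RNA, NEBNext Ultra kit). The authors deposited FPKM values per gene, 1 table per library, and the submitters' processing notes name STAR 2.6.0 and the genome build hg38. The supplementary methods take the counts from the second column of the STAR gene table, which ignores strand. Read numbers were recovered by choosing, for 22423 genes, a length that gave whole reads (tolerance 0.05 reads). That 100% of their values above 0 came out whole is therefore no independent check. The read numbers quoted come from that step.

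The analysis used log2(FPKM + 0.1) and limma 3.58.1 (R 4.3.3; lmFit, eBayes with trend), with 1 fit per series over all its groups. A gene was tested if it reached 0.1 FPKM in 2 or more libraries of the knockdown series, or in 3 or more of the CCS1477 series, with Benjamini-Hochberg adjustment over all of them. A change was called at an adjusted p under 0.05 and at least 1.5-fold. Fold changes on this scale understate the change of low genes. The methods call the RNA-seq replicates biological, without saying whether they were separate cultures or infections, so p-values measure only the spread between these libraries. Script steps were tested on simulated data.

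Members named with values were the H1F, H2AF and H3F genes that reached a mean of 1 FPKM in some group, the 8 HIST genes with the highest mean FPKM, and in each comparison the 4 largest called rises and falls among HIST genes above 1 FPKM; the other called members are given by reads or difference. Members and gene lists were chosen with earlier results of these data known. Alternatives were a pseudocount of 1, no filter on low values, median-of-ratios scaling, a replicate block, and each library left out in turn; a 2-fold threshold was tried for the DMSO comparison.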

Additional observations from a re-analysis of the deposited data

Results flagged for a closer look

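The effect of shp300/CBP differed between HOXB13-knockdown and control cells, by the interaction term of the fit (limma), in 6 members that reached a mean of 1 FPKM. Over all genes 2.53% had a more positive effect in HOXB13-knockdown cells and 5.59% a more negative one. The difference of the log2 effects was −2.04 for HIST1H2AC, −1.62 for HIST1H4H, 1.64 for H2AFX, 1.01 for H2AFY2, 0.99 for H1FX and 2.17 for HIST1H1E. HIST1H1E had only 22 to 62 reads a group. With each library left out in turn, only the calls of HIST1H2AC and H2AFX were kept every time. The effect of CCS1477 differed likewise for HIST1H4H (−1.51), HIST1H2BG (−0.96) and H2AFY2 (0.81), against 6.71% of all genes more positive and 2.45% more negative. The call of HIST1H2BG was lost without any 1 of most of the libraries. HIST1H4H and H2AFY2 had the same sign in both, in series that share no library, though their shp300/CBP calls were not kept every time. HIST1H2AC and H2AFX were not called for CCS1477.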

How the results depend on the processing

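Over 97 called values of 35 named members, 86 calls were kept under median-of-ratios scaling, 90 with no filter on low values, 94 with a pseudocount of 1 and 94 with the replicate block, and no value changed sign. Leaving out 1 library kept 365 such calls and lost 147. The number of members called ranged, with 1 library left out, from 14 to 18 for shHOXB13 (20 with all libraries), 0 to 2 for shHOXB13+shp300 (4), 5 to 13 for shHOXB13+shp300/CBP (13), 0 to 0 for shCtrl+shp300 (2), 5 to 12 for shCtrl+shCBP (11), 4 to 4 for shCtrl+shp300/CBP (7), 26 to 30 for shHOXB13 DMSO (31), 4 to 7 for CCS1477 in shHOXB13 cells (6), 5 to 14 for CCS1477 in shCtrl cells (9), 2 to 8 for the shp300/CBP interaction (7) and 2 to 4 for the CCS1477 interaction (3). Where an arm kept 1 library, it was assumed to vary like the other groups. Median-of-ratios scaling gave 4 calls for shCtrl+shp300 (2). The cause of these changes was not tested.

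The deviations of libraries with the same replicate number correlated at −0.124 to 0.159 in the knockdown series (mean −0.0165) and −0.114 to 0.503 in the CCS1477 series (mean 0.0524). Not every pair was over 0.1, so the number was taken only as a name. Still, shCtrl DMSO 1 and shCtrl CCS1477 1 shared high HIST sums, at 608 FPKM against 365 and 355, and 684 FPKM against 424 and 441. A pairing within the shCtrl cells alone was not tested, and the replicate block covers all groups of a series at once. With the replicate block 20 members were called for shHOXB13, 13 for shHOXB13+shp300/CBP, 32 for shHOXB13 DMSO, 9 for CCS1477 in shCtrl cells, 6 for the shp300/CBP interaction and 4 for the CCS1477 interaction. With 2 libraries a group and members at a few reads, small differences were not detectable at this depth.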
